A study of Solanum lycopersicum with 6 samples.

Results

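The Dof transcription factor family of tomato (*Solanum lycopersicum*) was examined in pericarp, which forms the fleshy outer part of the fruit. Its members were taken from a fixed list of 32 gene identifiers without their version suffix, of 23709 genes listed in at least 1 library. Of the 32 members, 23 had a row in all 6 files, 7 in some of them, and 2 (Solyc05g054510 and Solyc11g010940) had no row in the files used here; a missing row was taken as a count of 0, which allows up to 3 counts per library. The fruit, all sampled at 38 days post anthesis, was wild type in 3 libraries and carried the genotype label SlDof1 RNAi in the other 3. Titles of the second group carry the name SlDof-8. The labels give neither the cultivar, nor the construct or its promoter, nor the number of transgenic lines or fruits per library. The study compared the groups to find which genes they express differently.

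Dof proteins are plant transcription factors that bind DNA through a single conserved zinc finger and recognise sites with the core AAAG. In Arabidopsis, the cycling Dof factors peak in the morning and repress *CONSTANS* and *FT*, which promote flowering, until the photoreceptor FKF1 and GIGANTEA direct their breakdown. Other Dof proteins act in vascular growth and seed germination in Arabidopsis, and in seed storage protein and carbon metabolism genes in maize. The files pair identifiers with no names, and RefSeq (assembly SLM_r2.1) lists 1 gene with a Dof symbol, *Dof22* on chromosome 6, which is not tied to an identifier of the files. The members are therefore called by identifier, with no role given to any of them, and were ordered by level. For the same reason the tissue was not checked with marker genes.

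SlDof1 is likewise tied to no identifier in the labels or files, so the silencing could not be checked in the targeted gene, and the second group is called RNAi-labelled. Each library held 9608643 to 10002358 expected counts, which are estimated reads per gene and need not be whole. All 160 listed counts of Dof members were whole within 0.005, compared with 94.5% to 94.9% of the counts of all genes, so no reads shared with another gene were visible in them. The groups separated on the first principal component of log2 counts scaled to library size (51.5% of the variance). On the second (30.4%), library 1 of wild type and library 3 of the RNAi-labelled group lay at 32.6 and 32.2. The others lay at -18.3 to -13.7. Wild-type library 1 and RNAi-labelled library 3 are called the pair that stood apart, a split found in these libraries and given by no label.

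A little over 50% of the Dof family was expressed in wild-type pericarp. There, 17 of the 32 members (53.1%) had a mean of at least 1 FPKM (fragments per transcript length and sequencing depth, as deposited by the authors), as did 16 in RNAi-labelled fruit (50%). Among all genes listed in at least 1 library, 70.5% reached that level in wild type and 71.5% in RNAi-labelled fruit, a base that leaves out genes with no row, whereas the 32 include 2 such members. The level was reached in both groups by 15 members, in 1 group only by 3, and in neither by 14. All members together summed to 130.9 ± 3.79 FPKM in wild type and 155 ± 3.49 FPKM in RNAi-labelled fruit (SD, n = 3). The sum was 129.9, 135.2 and 127.8 FPKM in wild-type libraries 1 to 3 and 150.6, 156 and 157 FPKM in RNAi-labelled libraries 1 to 3. The 3 RNAi-labelled sums lay above all 3 wild-type sums, a description of a list that carries no test.

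The family's transcript was concentrated in a few genes. The 3 most abundant members held 55.3% of the summed FPKM in wild type and 58.1% in RNAi-labelled fruit, and the top 5 held 71.0% and 73.8%. The most abundant was Solyc02g090310.1, at 38.5, 29.7 and 28.3 FPKM in wild-type libraries 1 to 3 and 35.0, 37.8 and 48.3 FPKM in RNAi-labelled libraries 1 to 3. It was highest in the 2 libraries that stood apart, and the groups overlapped. Its wild-type mean lay above 79.6% of the genes detected there.

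Solyc03g121400.1 followed in wild type, at 21.6, 28.3 and 25.7 FPKM, and was at 25.5, 28.6 and 20.0 FPKM in RNAi-labelled fruit. The groups were nearly level, and the lowest library of each was the one that stood apart. Solyc06g075370.2 ranked number 3 in wild type and number 2 in RNAi-labelled fruit, and Solyc06g069760.2 number 4 in both. Solyc06g069760.2 was at 11.7, 14.4 and 13.9 FPKM in wild type and 15.3, 16.6 and 14.5 FPKM in RNAi-labelled fruit. The RNAi-labelled values were all higher, though the closest libraries lay at 14.49 and 14.40 FPKM.

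**Figure D1:**
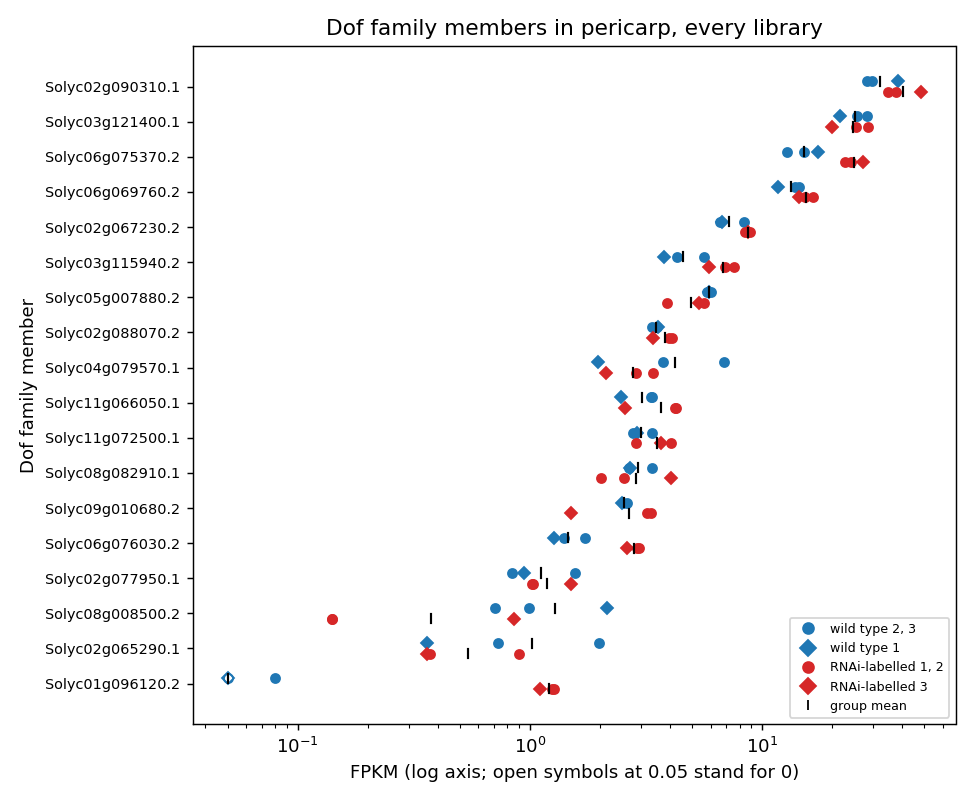
FPKM of the 18 Dof members with a mean of at least 1 FPKM in either group, in every library, on a log axis, with a tick at each group mean; open symbols stand for 0. Levels run from Solyc02g090310.1, at 28.3 to 48.3 FPKM, down to Solyc01g096120.2, which is near 0 in wild type only.

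The order of the members was firmer at the top than below, though not fixed there. In wild type, 8 of the 16 neighbouring pairs among expressed members had overlapping ranges, and 9 of 15 in RNAi-labelled fruit. Among the 3 most abundant members of wild type no ranges overlapped, although the lowest value of Solyc02g090310.1 (28.32 FPKM) barely exceeded the highest of Solyc03g121400.1 (28.28 FPKM). Solyc06g075370.2 and Solyc06g069760.2 overlapped there, and in RNAi-labelled fruit Solyc06g075370.2 overlapped Solyc03g121400.1 in its place. In RNAi-labelled fruit the 7 pairs from Solyc05g007880.2, number 7 in the order, to Solyc09g010680.2, number 14, all overlapped.

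Next in order were members of middling level. Solyc02g067230.2 was at 6.73, 6.59 and 8.37 FPKM in wild type and 8.44, 8.89 and 8.74 FPKM in RNAi-labelled fruit. Solyc02g088070.2, at 3.58, 3.54 and 3.37 FPKM in wild type and 3.96, 4.09 and 3.39 FPKM in RNAi-labelled fruit, was among the steadiest, and its groups overlapped. Another 5 expressed members, Solyc04g079570.1, Solyc11g066050.1, Solyc11g072500.1, Solyc08g082910.1 and Solyc09g010680.2, had means between 2.55 and 4.20 FPKM in both groups. Solyc02g077950.1 lay near the cut-off, at 1.12 ± 0.396 and 1.18 ± 0.274 FPKM (SD, n = 3).

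By counts, which also grow with transcript length, the order at the top differed. Solyc06g069760.2, with a listed length of 1997 bases, had the most counts, 1659 over all 6 libraries, followed by Solyc02g090310.1 (783 bases) with 1569 and Solyc06g075370.2 (1363 bases) with 1547. Solyc03g121400.1, of 633 bases, had 857 counts, and Solyc02g067230.2, of 1868 bases, had 856. Listed members were 492 to 1997 bases long with a median of 1024.5, compared with 1269 for all listed genes.

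The identifiers place the members on 10 chromosomes, with 9 on chromosome 2 and 6 on chromosome 6. Of the 9 on chromosome 2, 4 had a mean of at least 1 FPKM over all libraries, and so did 3 of the 6 on chromosome 6. Solyc02g077950.1 and Solyc02g077960.1, which are consecutive in numbering, were at 0.840 to 1.57 and 0.120 to 0.710 FPKM. Solyc02g090220.2 had 1 count in all, while Solyc02g090310.1, close to it in numbering, was the most abundant member.

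The 12 listed members that stayed under 1 FPKM in both groups never exceeded 1.48 FPKM or 15 counts in any library. The highest of them was Solyc10g086440.1, at 0.910 ± 0.277 FPKM in wild type and 0.783 ± 0.605 FPKM in RNAi-labelled fruit (SD, n = 3). Of the others, Solyc02g076850.1, Solyc04g070960.1 and Solyc02g090220.2 had 3, 2 and 1 counts over all 6 libraries. Totals this low are too few to set a level for these members.

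Between the groups, 3 Dof genes were higher in RNAi-labelled fruit, and none of those tested passed as lower. Enough counts for the test were present for 17 members. Of these, 3 rose (17.6%), 0 fell and 14 did not pass (edgeR, quasi-likelihood test, p adjusted by Benjamini-Hochberg over the 16737 genes tested, threshold 0.05). Over all tested genes, 12.3% passed, 6.54% higher and 5.8% lower. Over all 6 libraries, 0 of the 17 were lower at an unadjusted p under 0.05 as well (0 by edgeR and 0 by DESeq2, which called 2 members higher and 0 lower, against 6.4% and 5.39% of all tested genes). At that unadjusted level edgeR had 1 member lower without a filter, 1 in the 4 libraries without the pair that stood apart, 1 without wild-type library 1 and 2 with a term for the pair, of which 0 passed after adjustment. The median log2 fold change, RNAi-labelled over wild type, was 0.16 for the 17 members and -0.01 for all tested genes, and 12 of the 17 lay above 0, compared with 48.5% of all. Solyc01g096120.2 passed the filter on low counts only through its RNAi-labelled libraries, so that its presence among the 17 already implied a difference. Without a filter, 16 of 30 listed members lay above 0, with a median of 0.03. In bulk tissue, fewer cells of a type and less RNA per cell cannot be told apart.

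**Figure D2:**
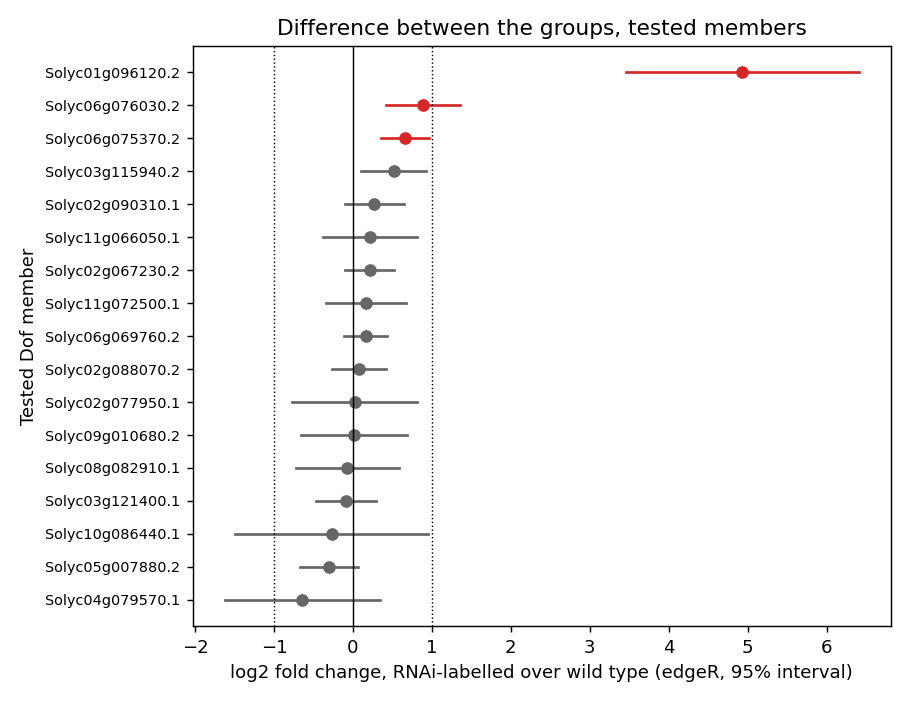
Log2 fold change, RNAi-labelled over wild type, with its 95% interval from edgeR for the 17 tested Dof members; red marks an adjusted p under 0.05 and dotted lines mark 2-fold changes. The 3 called members lie to the right of 0, and only the intervals of Solyc04g079570.1 and Solyc10g086440.1 reach a 2-fold fall.

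The largest difference was that of Solyc01g096120.2, which had 0, 1 and 0 counts in wild-type libraries 1 to 3 and 15, 15 and 13 counts in RNAi-labelled libraries 1 to 3. The groups did not overlap, and the gene was near 0 in every wild-type library and just over 1 FPKM in every RNAi-labelled one (1.27, 1.25 and 1.10 FPKM). Summed over libraries, 43 counts against 1 gave a ratio of 43.0 with an exact 95% interval of 7.31 to 1736, which covers counting error only. The interval is not adjusted for the choice of the gene, which was made with earlier results of these data known. Solyc01g096120.2 passed with edgeR (adjusted p = 0.00208) and in each of 15 alternative analyses (adjusted p up to 0.0164). In the main fit the filter on low counts kept it only through its RNAi-labelled libraries. Of the alternatives, only the edgeR fit without a filter (adjusted p = 0.0019) used none. All reuse the same libraries, so they are not separate support. At 1.21 ± 0.0929 FPKM in RNAi-labelled fruit (SD, n = 3) it ranked number 15 there, and number 30 in wild type.

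**Figure D3:**
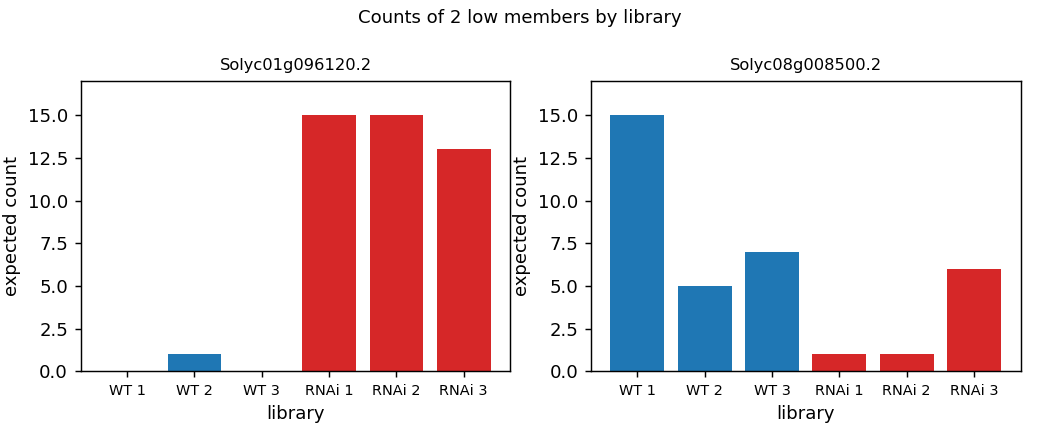
Expected counts of Solyc01g096120.2 and Solyc08g008500.2 in each library, with bars from 0. Solyc01g096120.2 has at most 1 count in wild type and 13 to 15 in RNAi-labelled fruit, and Solyc08g008500.2 has 5 to 15 in wild type and 1 to 6 in RNAi-labelled fruit.

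Solyc06g075370.2, one of the 3 most abundant members, was at 17.4, 15.2 and 12.8 FPKM in wild type and 24.3, 22.8 and 27.3 FPKM in RNAi-labelled fruit. All RNAi-labelled values lay above all wild-type values, a 1.58-fold difference with a 95% interval of 1.28 to 1.94 (log2 fold change 0.66 ± 0.13 SE, edgeR adjusted p = 0.0137). On the log2(FPKM + 1) scale it was 0.62 between the pair of libraries that stood apart and 0.72 between the means of the other 4. Leaving out wild-type library 2 or 3 ended the call (adjusted p = 0.0603 and 0.0530 by edgeR).

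Solyc06g076030.2 was at 1.27, 1.40 and 1.72 FPKM in wild type, from 18 to 25 counts, and at 2.94, 2.90 and 2.61 FPKM in RNAi-labelled fruit, from 37 to 42 counts. The groups did not overlap, and the difference was 1.85-fold with a 95% interval of 1.34 to 2.55 (edgeR adjusted p = 0.0251). It was 0.67 on the log2(FPKM + 1) scale between the pair that stood apart and 0.62 between the means of the other 4 libraries. The call did not hold with DESeq2 (adjusted p = 0.0657) or when any 1 of 4 libraries, number 1 or 2 of either group, was left out (adjusted p of 0.0634 to 0.101 by edgeR).

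Another 4 tested members had groups that did not overlap and did not pass the test. In all, 7 of 17 tested members (41.2%) had groups without overlap, as did 31% of all tested genes; among listed members it was 7 of 30 (23.3%), and 25% of all listed genes. Of the 7, 6 lay higher in RNAi-labelled fruit (20% of the listed members, against 15.3% of all listed genes) and 1 lay lower (3.33%, against 9.67%). Among the 6 is Solyc01g096120.2, which the filter kept only through its RNAi-labelled libraries, so the tested shares are no support for a direction. Solyc03g115940.2 was at 3.80, 5.64 and 4.32 FPKM in wild type and 7.57, 6.96 and 5.90 FPKM in RNAi-labelled fruit. This 1.43-fold difference had a 95% interval of 1.08 to 1.90 (edgeR unadjusted p = 0.0197, adjusted p = 0.109). It did not pass when any 1 library was left out (edgeR adjusted p of 0.068 to 0.286). It passed in the 4 libraries without the pair that stood apart (edgeR adjusted p = 0.0348), where 11.4% of all tested genes passed as higher. The pair was found in these same libraries, and leaving it out lowers the residual spread by selection, so that call is no support.

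**Figure D4:**
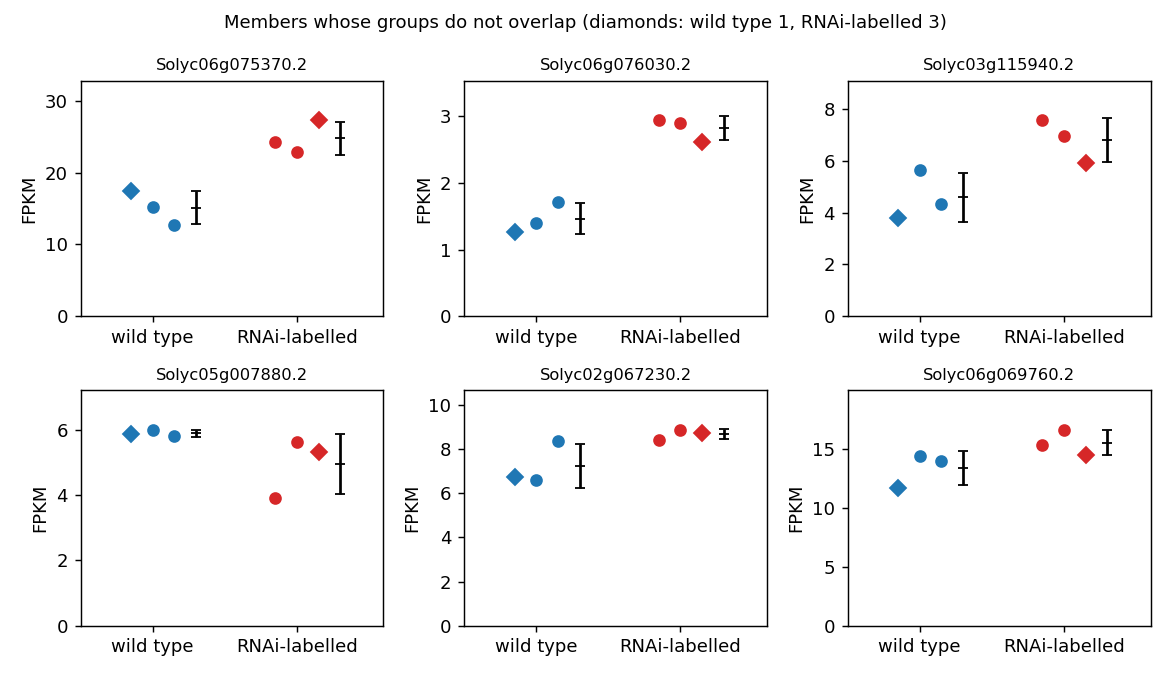
FPKM in every library of 6 Dof members whose groups do not overlap, with the mean and SD of each group (n = 3) beside the points; diamonds are wild-type library 1 and RNAi-labelled library 3, and axes start at 0. Solyc05g007880.2 is the member that lies lower in RNAi-labelled fruit, at 3.91 to 5.64 against 5.80 to 6.01 FPKM.

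The remaining differences of this kind were small. Solyc02g067230.2 and Solyc06g069760.2, whose values are given above, were 1.16-fold and 1.12-fold higher in RNAi-labelled fruit (edgeR adjusted p = 0.387 and 0.458). Solyc05g007880.2 was at 5.89, 6.01 and 5.80 FPKM in wild type and 3.91, 5.64 and 5.33 FPKM in RNAi-labelled fruit. The wild-type libraries differed by little, and RNAi-labelled library 1 was the lowest. Its log2 fold change of -0.30 ± 0.16 SE did not pass (edgeR adjusted p = 0.291) and was -0.16 without that library (adjusted p = 0.635).

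The intervals cannot tell which member was silenced, because SlDof1 is tied to no identifier and 15 members have no interval. Their lower side gives only how large a fall the data allow for each tested member. For 15 of the 17 tested members (88.2%) the 95% interval of the fold change lay wholly above a 2-fold fall, as it did for 91.7% of all tested genes. The 15 include Solyc01g096120.2, which the filter kept only through its RNAi-labelled libraries, so its interval could not have shown a fall. The intervals are not adjusted for the number of genes. Solyc04g079570.1 had the largest fitted fall, from 1.97, 6.87 and 3.76 FPKM in wild type to 3.38, 2.86 and 2.12 FPKM in RNAi-labelled fruit. The groups overlapped, wild type was widely spread, and the log2 fold change of -0.64 had a 95% interval of -1.62 to 0.34 (edgeR adjusted p = 0.41). Without wild-type library 2 it was -0.11 (adjusted p = 0.918), without wild-type library 1 it was -0.98 (unadjusted p = 0.0172, adjusted p = 0.0977), and in the 4 libraries without the pair it was -0.81 (unadjusted p = 0.0267, adjusted p = 0.0951), all by edgeR. With a term for the pair that stood apart, this gene and Solyc05g007880.2 were lower at an unadjusted p of 0.0438 and 0.0479 and did not pass after adjustment (edgeR adjusted p = 0.109 and 0.117). Solyc10g086440.1, from 28 and 24 counts per group, was at 0.590, 1.08 and 1.06 FPKM and 1.48, 0.480 and 0.390 FPKM, with an interval of -1.50 to 0.95.

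Solyc08g008500.2 had too few counts for the test but the lowest ratio of summed counts among members with more than 20 counts. Its counts were 15, 5 and 7 in wild type and 1, 1 and 6 in RNAi-labelled fruit, and the groups overlapped through RNAi-labelled library 3. Wild type was higher between the pair that stood apart (15 against 6) and among the other 4 libraries (5 and 7 against 1 and 1). That split was found in these same libraries, so it only describes the counts and is no support for a fall. The summed counts, 27 against 8, were 3.38-fold higher in wild type, with an exact 95% interval of 1.49 to 8.60 that covers counting error only. This interval leaves out the spread between libraries. It is also not adjusted for the choice of the gene, which was made with earlier results of these data known. An exact permutation test of the FPKM over libraries gave a two-sided p of 0.2, where 3 against 3 cannot go below 0.1, and the edgeR fit without a filter gave an unadjusted p of 0.0351 and an adjusted p of 0.204.

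The other 12 listed members that were not tested had group means of at most 1.02 FPKM. The highest was Solyc02g065290.1, at 0.360, 0.730 and 1.98 FPKM in wild type and 0.370, 0.900 and 0.360 FPKM in RNAi-labelled fruit, where a single library set the wild-type mean. Of all 13 untested listed members, 8 had a lower mean in RNAi-labelled fruit, 4 a higher one and 1 the same. Exact permutation tests gave p of 0.2 to 1, and without a filter the lowest unadjusted edgeR p of these 12 was 0.111. Their counts were too low for the filter, and no limit of detection was computed for them.

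Some Dof genes departed in the same direction in both libraries that stood apart. Among the 15 members expressed in both groups, 2 were highest in wild-type library 1 and RNAi-labelled library 3 within their groups, and 7 were lowest in both. The same places were not counted for all genes. The lower members included Solyc04g079570.1, at 37.1% of the mean of the other wild-type libraries and 67.9% of that of the other RNAi-labelled libraries, and Solyc11g066050.1, at 74.1% and 60.8%. Solyc02g090310.1 was 1.33-fold higher in each. In all, 9 of the 15 (60.0%) departed in the same direction in both groups, compared with 76.4% of 16296 genes at that level. The difference between these shares was not tested, and 15 members are too few to set the family apart. Some departures were also small, as for Solyc11g072500.1, at 94.5% in wild type and 106% in RNAi-labelled fruit. Solyc09g010680.2, one of the 7, was lowest by little in wild-type library 1 and by more in RNAi-labelled library 3, at 2.50, 2.63 and 2.52 FPKM in wild type and 3.32, 3.20 and 1.51 FPKM in RNAi-labelled fruit.

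**Figure D5:**
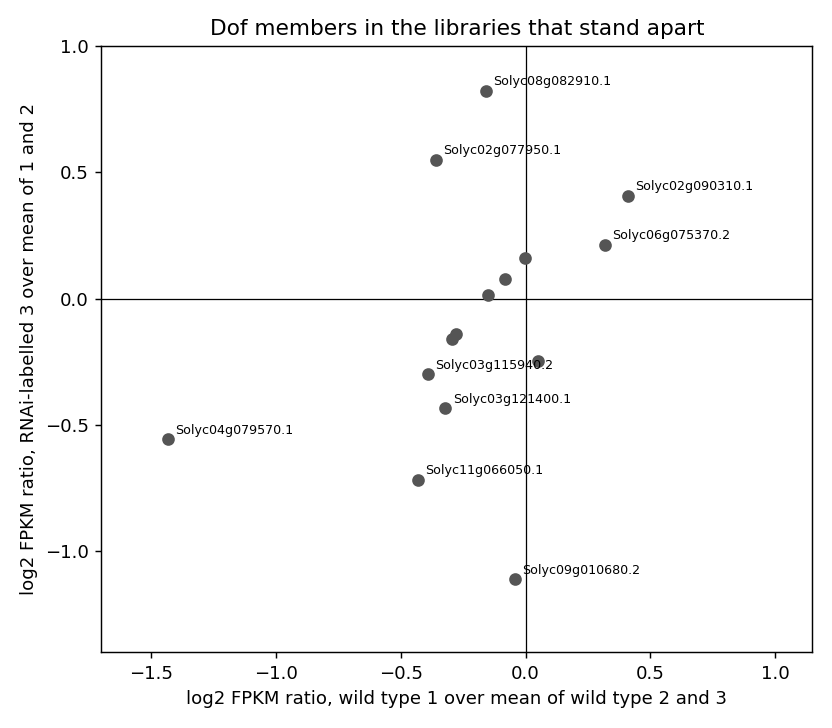
Log2 ratio of FPKM in wild-type library 1 to the mean of wild-type libraries 2 and 3, against the same for RNAi-labelled library 3 over libraries 1 and 2, for the 15 Dof members with at least 1 FPKM in both groups; labels are given beyond 0.3 on either axis. Points at lower left, such as Solyc04g079570.1, are low in both libraries that stand apart, and Solyc02g090310.1 and Solyc06g075370.2 are high in both.

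The spread from this pair touched the comparison of the most abundant member. Solyc02g090310.1 was higher in RNAi-labelled fruit by 0.32 on the log2(FPKM + 1) scale both within the pair and between the means of the other 4 libraries, while over all 6 libraries its log2 fold change of 0.27 ± 0.16 SE did not pass (edgeR adjusted p = 0.355). With a term for the pair in the model it passed (adjusted p = 0.0152), as did 5 members in all, where 15.9% of all tested genes passed as higher. That split was found in these libraries, which lowers the residual spread by selection. What separates the pair from the other 4 libraries was not tested.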

How the data were processed

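Pericarp RNA from 3 wild-type and 3 RNAi-labelled samples was sequenced on an Illumina HiSeq instrument. The authors deposited 1 file per library with an expected count and an FPKM value per gene, per the file headers. FPKM was used for levels as deposited. For the aligner, counter, genome build and strand, the setting was not given in the sources used here. Expected counts were rounded, filtered with edgeR's filterByExpr (minimum 10 counts, 15 in all), scaled by TMM factors (0.967 to 1.04) and compared with the quasi-likelihood test, group as the only term, over 16737 genes. Standard errors are |log2 fold change| over the root of the F statistic, and 95% intervals use the moderated degrees of freedom. Nothing in the labels says that replicates came from separate plants, so p-values cover only the spread of these samples, which may be technical. Chi-square per degree of freedom was 2.10 to 16.7 within groups, so no library was a duplicate. The code was tested on simulated counts. Sums of counts were compared with exact binomial intervals, which cover counting error only.

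Alternatives were RLE and upper-quartile scaling, DESeq2, limma on log2(FPKM + 1) and log2(FPKM + 0.1), no filter, the replicate number as a block, 4 libraries, a term for the pair that stands apart, and leaving out each library. Members and lists were chosen with earlier results of these data known. Values in every library are given for the 8 most abundant members, every called member, members without overlap at 0.3 FPKM or more, the 3 largest fitted falls among tested members, Solyc01g096120.2 and Solyc08g008500.2; Solyc02g065290.1 and Solyc09g010680.2 were added after their values were seen. Genes of other pathways are not reported because no table used here ties their identifiers to names. Fits used DESeq2 1.42.0, edgeR 4.0.16 and limma 3.58.1 in R 4.3.3, and figures matplotlib 3.10.9 in Python 3.11.15.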

Additional observations from a re-analysis of the deposited data

How the results depend on the processing

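Over 15 alternatives, 230 of 255 member fold changes kept their direction and their side of the threshold, and 12 of 17 tested members kept 1 direction throughout. The number of members that rose, 3, became 1 with the replicate number as a block, 5 with a term for the pair that stands apart, and 1 to 3 when 1 library was left out (1 without wild-type library 2); no alternative gave a fall. Over all genes the 1094 rises and 971 falls became 496 and 381 with the replicate block, 1922 and 1771 in the 4 libraries without the pair, 2664 and 2720 with the term, and 583 to 1126 and 481 to 912 when 1 library was left out. The labels do not say whether libraries with the same replicate number were paired. Deviations from the group means correlated at -0.49, 0.28 and -0.52 for numbers 1 to 3. Wild-type library 1 correlated best with RNAi-labelled library 3 (0.70). With the replicate block Solyc06g075370.2 and Solyc06g076030.2 did not pass (edgeR adjusted p = 0.0644 and 0.112).

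The sign changed in at least 1 alternative for 5 members. Solyc02g077950.1 was at -0.28 in the 4 libraries, and Solyc09g010680.2 at -0.011 with limma on log2(FPKM + 0.1) and -0.028 with the replicate block. With 1 library left out, log2 fold changes ran from -0.17 to 0.35 for Solyc02g077950.1, -0.16 to 0.30 for Solyc09g010680.2, -0.21 to 0.049 for Solyc03g121400.1, -0.39 to 0.13 for Solyc08g082910.1 and -1.08 to 0.050 for Solyc10g086440.1. The summed FPKM of the family was 98.8 in wild type and 114 in RNAi-labelled fruit without its most abundant member, and 167 and 197 as TPM. Expressed members at 0.5 or 2 FPKM numbered 20 or 13 in wild type and 20 or 14 in RNAi-labelled fruit. The cause of these changes was not tested. The 13 listed members that were not tested had too few counts for the filter, and the part of depth in this was not tested.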
